A study of Mus musculus with 36 samples.

Results

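The regions described here are the exon bins of the mouse liver H3K9me3 profile: the pieces of peaks on chromosomes 1 to 19 that the deposited annotation assigned to an exon. They number 10709 of 120683 bins in the comparison of 8 with 3 weeks in control females and 13014 of 148133 in control males, and between 9709 and 13626 in the 4 comparisons of maternal obesity (MO) with control. Over the 6 tables they make up 69187 of 786789 bins. A bin is at most 501 bp long. The annotation gives promoters and untranslated regions precedence over exons, so the exon bins lie in coding exons, in the exons of noncoding genes and in pseudogenes, away from the transcription start site that the annotation gave each bin. For the age comparison, 679 exon bins in females and 835 in males lie in first exons and 2161 and 2515 in single-exon transcripts, where the start of the transcript itself can fall in the bin.

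The liver was taken from male and female offspring at 3 or 8 weeks of age. Their dams received a Western-style diet (MO offspring) or a chow diet (controls) before mating, through pregnancy and during lactation, and the offspring studied at 8 weeks ate chow after weaning. Animals of every group, controls included, came from a Reg3g colony on a C57BL/6J background and carried the floxed allele (Reg3g fl/+ or Reg3g fl/fl). MO and control offspring had different dams, and those studied at 8 weeks were separate cohorts. Each of the 8 groups (a diet of the dam, a sex and an age) had 4 ChIP libraries of whole liver tissue, which holds hepatocytes together with other cell types, so a changed mark and a changed mix of cells cannot be told apart. Exon bins were too few in marker genes to bear on the mix of cells: 10 hepatocyte markers held 0 to 2 of them per comparison, the immune, stellate and endothelial, and biliary lists 0 to 14 each, and 0 were called there. Of the comparisons, 4 set MO against control at each age in each sex, and the other 2 set 8 against 3 weeks in control animals. The age comparison of a sex shares its 4 control libraries of each age with the MO comparisons of that sex, so its changes are not independent of theirs. The deposited tables give for each bin a log2 change, an average log2 CPM (reads in the bin scaled to library size), an unadjusted p-value and its FDR (the false discovery rate), and no value per library. Single libraries, and therefore the spread between animals, could not be shown.

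H3K9me3 is the trimethylated form of lysine 9 on histone H3, a mark of silent chromatin bound by HP1 proteins. In most of the genome it covers transposons, satellites and tissue-restricted gene clusters, but a group of genes carries it inside the gene body. The best known are the KRAB zinc finger genes, whose last exon encodes the array of zinc fingers and binds the repressor complex of KAP1 and the methyltransferase SETDB1. Processed pseudogenes, which are intronless copies of messenger RNAs placed elsewhere in the genome by retrotransposition, are counted as exons by the annotation although they are not expressed as proteins.

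The sequences below show what an exon bin can be, on the strand of its gene, 5′ to 3′, from the middle of the bin (GRCm38). In the first group, capitals mark bases that lie in an annotated exon and lower case marks introns or flanks. The bins of Apc2 (chr10:80313166-80313345, plus strand, last of 15 exons), Fiz1 (chr7:5008538-5008717, minus strand, last of 3 exons) and Prag1 (chr8:36146490-36146669, plus strand, last of 6 exons) gained the mark with age and are exonic throughout. The bins of Hnrnpab (chr11:51602360-51602659, minus strand, exon 6 of 7) and of the noncoding gene E130310I04Rik (chr16:34943508-34943807, minus strand, exon 3 of 4) lost it and are mostly intron: 67 and 57 of the 300 bases shown are exonic. The bin of Gm4247 (chr7:12794836-12795015, minus strand) gained the mark and belongs to a processed pseudogene whose exon covers 38.7% of the bin.
Apc2: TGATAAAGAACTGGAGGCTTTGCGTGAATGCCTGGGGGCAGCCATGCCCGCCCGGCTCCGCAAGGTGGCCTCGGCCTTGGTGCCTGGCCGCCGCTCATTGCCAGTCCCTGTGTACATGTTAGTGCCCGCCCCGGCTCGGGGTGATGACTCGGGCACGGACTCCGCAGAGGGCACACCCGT
Fiz1: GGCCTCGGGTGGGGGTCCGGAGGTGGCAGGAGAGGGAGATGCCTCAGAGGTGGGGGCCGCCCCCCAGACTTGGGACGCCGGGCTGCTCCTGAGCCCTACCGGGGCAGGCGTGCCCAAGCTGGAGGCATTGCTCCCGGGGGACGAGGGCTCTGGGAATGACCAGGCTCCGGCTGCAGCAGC
Prag1: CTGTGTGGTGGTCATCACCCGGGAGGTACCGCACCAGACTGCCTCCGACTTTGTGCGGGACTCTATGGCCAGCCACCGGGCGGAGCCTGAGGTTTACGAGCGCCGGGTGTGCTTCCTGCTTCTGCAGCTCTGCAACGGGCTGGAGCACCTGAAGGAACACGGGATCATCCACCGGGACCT
Hnrnpab: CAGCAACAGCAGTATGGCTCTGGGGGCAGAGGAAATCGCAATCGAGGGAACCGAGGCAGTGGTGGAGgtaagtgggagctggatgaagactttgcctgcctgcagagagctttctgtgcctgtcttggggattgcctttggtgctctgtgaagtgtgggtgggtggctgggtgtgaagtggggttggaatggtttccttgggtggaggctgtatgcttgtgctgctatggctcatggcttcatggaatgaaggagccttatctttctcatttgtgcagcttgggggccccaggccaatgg
E130310I04Rik: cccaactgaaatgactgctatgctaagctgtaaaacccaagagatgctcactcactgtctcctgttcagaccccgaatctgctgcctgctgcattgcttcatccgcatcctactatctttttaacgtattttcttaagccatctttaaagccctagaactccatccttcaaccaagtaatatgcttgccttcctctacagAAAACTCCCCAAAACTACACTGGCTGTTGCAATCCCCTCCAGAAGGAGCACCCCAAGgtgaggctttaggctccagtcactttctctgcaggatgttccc
Gm4247: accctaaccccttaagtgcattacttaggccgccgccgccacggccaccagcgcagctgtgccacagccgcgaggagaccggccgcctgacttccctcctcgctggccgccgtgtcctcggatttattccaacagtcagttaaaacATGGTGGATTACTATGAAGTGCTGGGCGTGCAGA

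The second group comes from last exons of zinc finger genes. Capitals mark matches to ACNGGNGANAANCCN or ACNGGNGANNGNCCN, the letters that can encode the linker between neighbouring fingers (threonine, glycine, glutamate, lysine or arginine, proline). The bin of Zfp13 (chr17:23576361-23576660, minus strand, exon 6 of 6) gained the mark in females and the bin of Zfp316 (chr5:143253344-143253643, minus strand, exon 7 of 7) in males, and 2 matches fall in each stretch. Of the 4 zinc finger stretches read, only those with matches are shown: the central stretches of the female Zfp316 bin and of the male Zfp64 bin hold 0.
Zfp13: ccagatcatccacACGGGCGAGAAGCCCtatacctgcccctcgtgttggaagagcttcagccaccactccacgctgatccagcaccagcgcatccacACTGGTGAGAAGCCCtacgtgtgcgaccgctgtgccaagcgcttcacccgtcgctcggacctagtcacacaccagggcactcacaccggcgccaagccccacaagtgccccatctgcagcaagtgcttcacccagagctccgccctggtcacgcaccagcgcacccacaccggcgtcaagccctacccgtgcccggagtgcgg
Zfp316: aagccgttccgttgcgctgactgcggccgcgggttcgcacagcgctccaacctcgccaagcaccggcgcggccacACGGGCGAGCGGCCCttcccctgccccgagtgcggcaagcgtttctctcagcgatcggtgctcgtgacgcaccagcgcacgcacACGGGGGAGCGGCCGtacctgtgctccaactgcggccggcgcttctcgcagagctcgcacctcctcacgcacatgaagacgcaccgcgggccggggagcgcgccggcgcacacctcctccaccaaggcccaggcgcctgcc
Searched on both strands of full-length 501-bp bins, the letters were found in 525 of 69009 autosomal bins of the female table (0.761%), in 98 of 7262 exon bins (1.35%) and in 42 of 69 bins in last exons of zinc finger genes (60.9%). In the male table they were found in 580 of 84733 autosomal bins (0.685%), in 109 of 8428 exon bins (1.29%) and in 40 of 71 last-exon zinc finger bins (56.3%). A match describes the letters of the bin and not a function.

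The label was checked against gene models (GENCODE vM21, the same assembly). Annotated exons overlapped all but 31 of the 10709 female exon bins and all but 49 of the 13014 male ones. A bin was rarely exon alone: the median share of an exon bin covered by exons was 46.5% in the female age table (quartiles 26.4% and 91.4%) and 45.8% in the male one, and the bin was exonic from end to end in 2323 and 2885 cases. Coding sequence touched 6713 female and 8078 male exon bins, and untranslated regions touched 40 and 54. At least 50% of the bases were exonic in 47.2% of female exon bins, against 11.8% of the bins outside exons. The gene that holds the exon was often not the gene whose start was nearest: the names differed for 5189 of 10623 matched bins in females (48.8%) and for 6364 of 12918 in males (49.3%). Genes are therefore named here by the transcript of the exon.

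The exon bins had median levels near those of the rest of the profile. In the female age table the median level was 2.65 log2 CPM in exon bins and 2.64 in bins outside exons, and the male values were 2.13 and 2.10. The maximum differed: no exon bin exceeded 5.03 log2 CPM in females or 5.28 in males, whereas bins outside exons reached 9.31 and 8.99. Soft-masked repeats made up a median of 5.99% of the bases of female exon bins and 13.0% of the bases of the others (6.19% and 13.2% in males). Median GC content was 54.7% against 54.3% in females and 54.3% against 53.9% in males. CG dinucleotides numbered a median of 2.39 per 100 bp in female exon bins and 2.00 over all autosomal bins (2.20 and 1.81 in males). Peaks that consist of 1 bin made up 25.1% of female exon bins and 33.9% of the others.

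The exon bins were spread over 7710 genes in females and 8899 in males, and 6134 and 6856 of these genes had 1 exon bin. Genes with many exon bins were long, many-exon genes. Ttn, the giant sarcomere protein titin, had 18 in the female and 27 in the male age table. Csmd2, a large transmembrane protein of the nervous system, had 18 in both, and Dnah10, an axonemal dynein heavy chain, had 15 and 14. In females 1 bin each was called in Ttn, Csmd2 and Dnah10, and in males 1 in Ttn, 1 in Csmd2 and 2 in Dnah10, at an FDR under 0.05 between 3 and 8 weeks.

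The strongest exon bins, ranked by average CPM per kb, were led in both sexes by coding exons of Plec and Zfp316 once bins shorter than 501 bp were set aside, a choice made after the values were seen. Plec, which encodes the cytoskeletal linker plectin, had 65.2 CPM per kb in the female table (exon 32 of 33, chr15:76179450-76179950) and 77.4 in the male table at a neighbouring bin of that exon (chr15:76180722-76181222). Zfp316, a zinc finger gene, had 62.8 in females (chr5:143253917-143254417) and 61.8 in males (chr5:143253244-143253744), both in its last exon. Shroom3, which shapes epithelial cells through actin, had 56.1 and 50.9 in its exon 5 of 11. Zfp334 followed in both tables with 55.7 and 48.3, and the small RNA gene Gm28000 (56.8, females) and exon 15 of 16 of Zfhx3 (47.7, males), a homeobox and zinc finger transcription factor, completed the leading 5. With bins of any length, very short bins entered the list, such as 69 bp in Sh2d4b (82.3 CPM per kb, females) and 49 bp in Syt13 (68.7) and 73 bp in Zfp541 (49.9, both males).

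Between 3 and 8 weeks, 222 of the 10709 exon bins changed in control females at FDR under 0.05, 127 gained and 95 lost. That is 2.07%, beside 2.08% of all 114317 autosomal bins. By direction, 1.19% of exon bins gained the mark and 0.887% lost it, beside 0.812% and 1.27% of all autosomal bins. In control males 598 of 13014 exon bins changed, 392 gained and 206 lost, which is 4.60% beside 4.36% of all 147360 autosomal bins. Gains made up 3.01% and losses 1.58% of male exon bins, beside 2.36% and 2.00%. The share of exon bins that changed was thus close to that of the genome in both sexes, with more gains than losses. The median change over all exon bins was -0.04 in females and -0.03 in males on the log2 scale, beside -0.05 in both over all autosomal bins. The changes followed a trend with GC content and signal that ran through all bins. With that trend subtracted (the median change of the autosomal bins in the same decile of GC content and of log2 CPM), 74 exon bins were called in females (43 gained) and 221 in males (173 gained), beside 0.751% and 1.67% of all autosomal bins. That setting also recomputed the p-values and their FDR, and the part of each step in the lower counts was not tested.

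**Figure D1:**
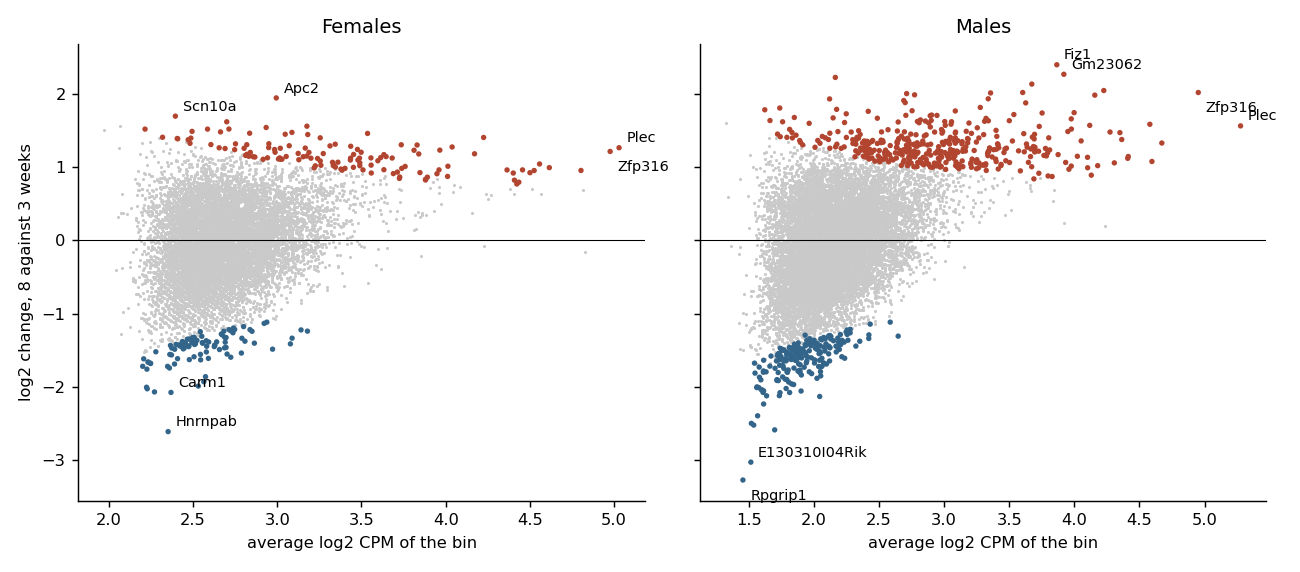
Log2 change between 3 and 8 weeks (vertical axis) against average log2 CPM (horizontal axis) for every exon bin of the female (left) and male (right) control comparison. Red and blue points are bins that gained or lost H3K9me3 at FDR under 0.05 and grey points are the others. Most losses lie at low signal, with 14 of 95 in females and 12 of 206 in males in the highest of 3 equal classes of all bins by log2 CPM, and the gains extend to the strongest bins, Plec and Zfp316.

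Gained and lost exon bins were different kinds of place. The 127 gained female bins had a median level of 3.33 log2 CPM and the 95 lost ones 2.53. In males the medians were 2.90 and 1.89. Exons covered a median of 90.6% of the gained and 42.7% of the lost female bins, and 74.9% and 34.7% in males. At least 50% of the bin was exonic in 94 of 127 gained and 40 of 95 lost bins in females, and in 276 of 392 and 81 of 206 in males. Median GC content was 58.3% in gained and 51.9% in lost bins in females, and 55.7% and 51.7% in males. CG dinucleotides numbered a median of 4.79 per 100 bp in gained and 1.80 in lost female bins, and 3.99 and 1.40 in males. Bins outside exons that changed showed the same order, with 3.79 in gained and 1.25 in lost female bins and 3.91 and 1.20 in male ones. These are descriptions of the called bins, and the part of GC content and signal in the direction of change was not tested beyond the subtraction above.

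The direction of change also went with the length of the peak. In peaks of a single bin, 9 exon bins gained and 38 lost the mark in females, and 30 gained and 62 lost it in males. Losses made up 1.41% of female and 1.75% of male exon bins in such peaks, beside 1.69% and 2.14% of all autosomal bins in single-bin peaks. In peaks over 2000 bp the order was the opposite, with 79 gained and 17 lost in females and 226 gained and 60 lost in males. Gains made up 2.64% of female and 7.27% of male exon bins in these long peaks, beside 1.68% and 4.68% of all autosomal bins in peaks of that length. Each peak is represented by 1 bin in the tables, and how that bin was chosen from a long peak is not given in the sources used here. The bin can differ between tables: the same long peak at Plec is given by chr15:76179450-76179950 in the female age table and by chr15:76182450-76182950 for MO in females at 3 weeks. The part of this choice in the calls of long peaks was not tested.

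**Figure D2:**
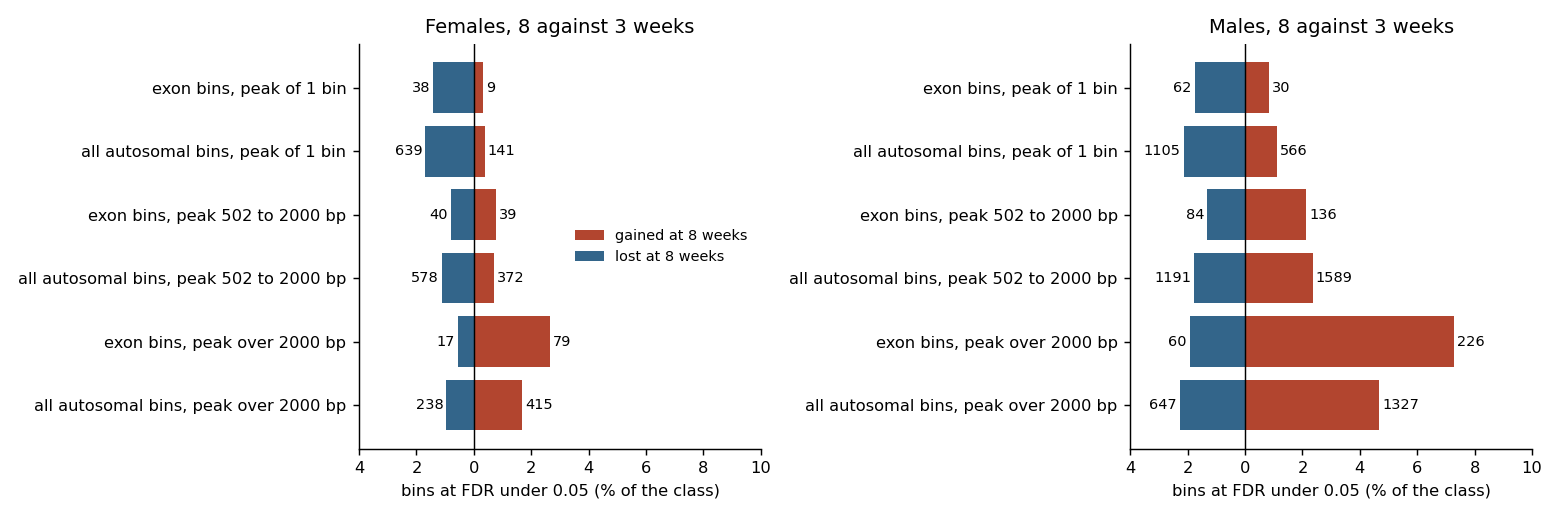
Percentage of bins at FDR under 0.05 that gained (right, red) or lost (left, blue) H3K9me3 between 3 and 8 weeks, by the length of the peak, for exon bins and for all autosomal bins of each sex. Numbers beside the bars are counts of bins. Losses outnumber gains in peaks of 1 bin, and gains outnumber losses in peaks over 2000 bp.

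The position of the exon in its transcript separated the bins further. Internal exons held most exon bins, 6225 in females and 7649 in males, and had the lowest share called: 95 (1.53%, 37 gained) in females and 246 (3.22%, 127 gained) in males. Last exons had 59 of 1644 bins called in females (3.59%, 42 gained) and 132 of 2015 in males (6.55%, 95 gained). Over all autosomal bins the shares were 2.08% in females and 4.36% in males. Transcripts of a single exon had 57 of 2161 called in females (2.64%, 42 gained) and 185 of 2515 in males (7.36%, 148 gained). First exons are mostly annotated as promoters and were few, with 11 of 679 called in females and 35 of 835 in males. Within protein-coding genes the order was the same for internal and last exons, with 88 of 5823 against 42 of 1005 in females (1.51% and 4.18%) and 219 of 7103 against 105 of 1157 in males (3.08% and 9.08%). Of those called last coding-gene bins, 35 in females and 82 in males were gains. With the trend subtracted, 17 of 1644 last-exon bins were called in females (9 gained) and 51 of 2015 in males (42 gained). Of internal-exon bins 40 of 6225 and 99 of 7649 were called (20 and 73 gained). The shares over all autosomal bins were then 0.751% and 1.67%. Of the bins in single-exon transcripts 11 were then called in females (9 gained) and 56 in males (49 gained). In single-bin peaks the called bins of last exons were mostly losses, with 2 of 11 gained in females and 4 of 18 in males, as were those of internal exons (1 of 21 and 7 of 40), while single-exon transcripts had 5 of 12 and 17 of 30 gained. Exons covered a median of 100% of last-exon bins and 35.3% of internal-exon bins in females, so bins in last exons are also the more fully exonic ones.

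Bins covered completely by exons were called in 83 of 2323 cases in females (3.57%, 57 gained) and 209 of 2885 in males (7.24%, 151 gained). Where exons covered under 25% of the bin, 33 of 2479 were called in females (1.33%, 10 gained) and 118 of 3200 in males (3.69%, 45 gained). The shares over all autosomal bins, 2.08% in females and 4.36% in males, lie between those of these 2 classes. The median change went the same way, from -0.14 in females and -0.20 in males under 25% cover to 0.07 and 0.14 between 50% and 100%, but was -0.03 and 0.02 at full cover.

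**Figure D3:**
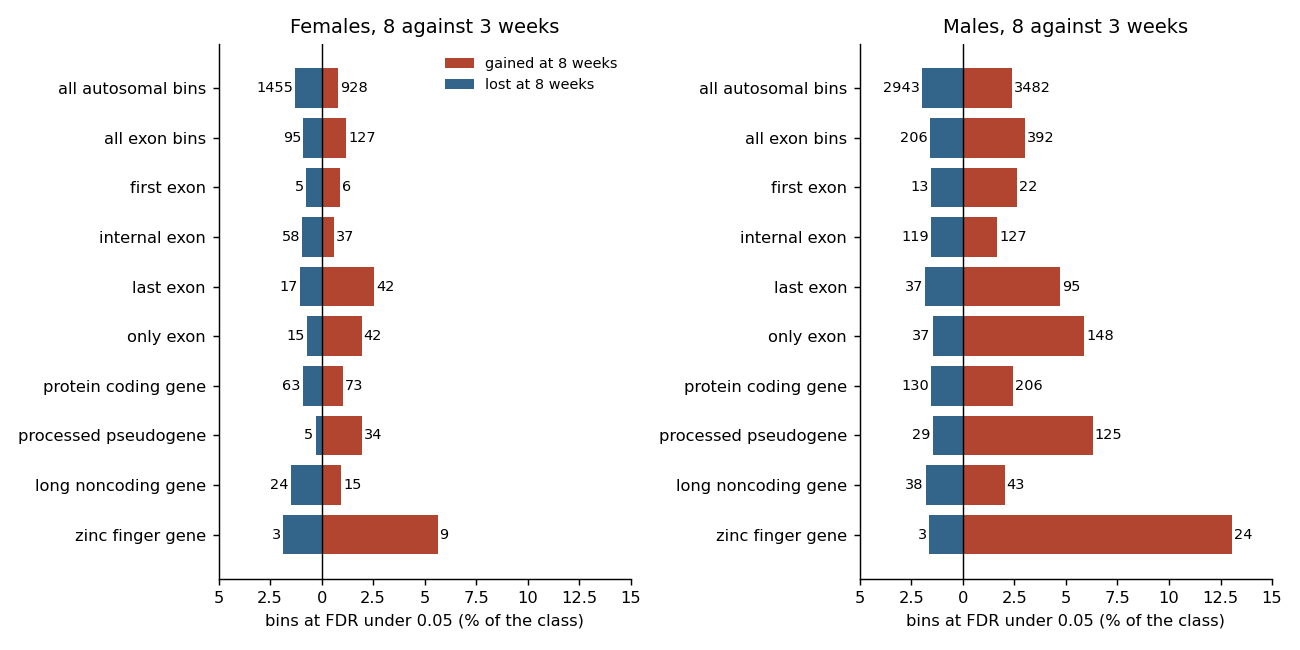
Percentage of bins at FDR under 0.05 that gained (right, red) or lost (left, blue) H3K9me3 between 3 and 8 weeks in each class of exon bin, with all autosomal bins at the top. Numbers beside the bars are counts of bins. Of the classes drawn, zinc finger genes, processed pseudogenes, single-exon transcripts and last exons have the largest shares of gains in males.

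Processed pseudogenes held 1745 exon bins in females and 1986 in males. In females 39 were called (2.2%, beside 2.08% of all autosomal bins), 34 of them gains. Of the class 1.95% gained and 0.287% lost the mark, beside 0.812% and 1.27% of all autosomal bins. In males 154 were called (7.75%, beside 4.36%), 125 of them gains (6.29% gained and 1.46% lost, beside 2.36% and 2.00%). Their median change was 0.09 in females and 0.17 in males, while protein-coding exon bins had medians of -0.07 in both. With the trend in GC content and signal subtracted, 9 were called in females (8 gained) and 45 in males (41 gained), and the medians were 0.11 and 0.13. Over all autosomal bins 0.751% and 1.67% were then called. In single-bin peaks 9 were called in females (5 gained) and 24 in males (14 gained). A processed pseudogene resembles its parent gene, and reads from one can align to the other, so the place of these signals is uncertain. Of the exon bins of long noncoding genes, 15 gained and 24 lost the mark in females (2.44% called) and 43 gained and 38 lost it in males (3.82% called), near the shares of all autosomal bins.

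The largest gains in females lay in 6 protein-coding genes and 4 processed pseudogenes. The last exon of Apc2, a relative of the Wnt pathway regulator Apc that is active mainly in neurons, gained 1.95 on the log2 scale (chr10:80313006-80313506, FDR 2.93e-05), and its bin lies in a peak of 30700 bp. The last exon of Scn10a, a voltage-gated sodium channel of sensory neurons, gained 1.70 (chr9:119609371-119609871, FDR 0.00542). Exon 13 of 33 of the receptor gene Notch3 gained 1.62 (chr17:32151190-32151690, FDR 0.00200). Nphp4, which encodes a protein of the base of cilia, gained 1.56 at exon 17 of 29 and 1.10 at a second bin. Plcg2, a phospholipase of B cell and myeloid signalling, gained 1.54, and Ptpn14, a tyrosine phosphatase, gained 1.49. Exons cover 13.4% of the Plcg2 bin, 28.7% of the Ptpn14 bin and 36.1% of the Nphp4 bin. The other 4 of the 10 largest gains were assigned to processed pseudogenes, Gm9134, Gm8319, Gm10020 and Gm11779, with changes between 1.48 and 1.52. Exons cover 32.9%, 2.4%, 92.0% and 45.3% of these bins, so the Gm8319 bin lies almost wholly outside its pseudogene. The smallest FDR among female exon bins belonged to Plec (change 1.26, FDR 3.47e-06), followed by Tenm3, a teneurin adhesion protein of synapses (1.41, FDR 1.74e-05).

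The largest losses in females lay at weaker bins. Hnrnpab, which encodes an RNA-binding protein, fell by 2.61 (chr11:51602359-51602660, FDR 7.12e-05), and Carm1, an arginine methyltransferase that acts as a transcriptional coactivator, fell by 2.08 at exon 2 of 16 (chr9:21569068-21569568, FDR 0.00206). The lost bin of Dnah8 (-2.03), a dynein heavy chain of sperm flagella, was assigned to a transcript without a coding sequence, and Gm47923 (-2.07) is a noncoding gene. Tuft1 (-1.99), Acsm5 (-1.93), a mitochondrial acyl-CoA synthetase, Loxhd1 (-1.86), a protein of inner ear hair cells, Specc1l (-1.76) and Csmd2 (-1.74) followed. The levels of these bins were between 2.23 and 2.57 log2 CPM. After the trend was subtracted, Gm47923 (-1.64), Dnah8 (-1.68), Specc1l (-1.42) and Csmd2 (-1.38) were no longer called but kept their direction.

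In males the largest gain was in the last exon of Fiz1, a zinc finger protein that binds the receptor kinase FLT3 (2.40, chr7:5008378-5008878, FDR 4.45e-12). Gm23062, a predicted small RNA gene, gained 2.27 (FDR 1.26e-11), and the phosphatase gene Ppm1h gained 2.23 in the last of 6 exons of a retained-intron transcript (FDR 1.84e-05). The first exon of Mn1, a transcriptional coregulator with a very long coding first exon, gained 2.05 (chr5:111421017-111421517, FDR 1.88e-10). Akap12, a scaffold for protein kinase A, gained 2.01 in its long coding exon 3 of 4 (FDR 1.32e-07). The last exon of Zfp316 gained 2.02 and had the smallest FDR of all male exon bins (2e-12). The noncoding genes Gm13026 (2.13) and Gm7762 (1.99), and the processed pseudogene Gm45224 (2.02) were also among the largest gains.

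The largest loss in males was at Rpgrip1, a gene of the photoreceptor cilium, which fell by 3.27 in an exon of a retained-intron transcript (chr14:52141679-52142017, FDR 0.000135). The noncoding gene E130310I04Rik fell by 3.03 (FDR 0.000186), Ambra1, an autophagy regulator, fell by 2.59 (FDR 0.000225), and Tnfrsf10b, the mouse TRAIL receptor, fell by 2.52 (FDR 0.00194). Pde4a, a cyclic AMP phosphodiesterase, fell by 2.50, Acvr1b, an activin receptor, by 2.40, and Rrbp1, a ribosome-binding protein of the endoplasmic reticulum, by 2.24. Gm47849 (-2.13), Gm15617 (-2.12) and Flt3 (-2.12), the receptor kinase of blood progenitors, followed. Their levels were between 1.45 and 2.04 log2 CPM, below the male median of 2.13. After the trend was subtracted, Pde4a (-1.87), Acvr1b (-1.75), Rrbp1 (-1.61), Gm15617 (-1.47) and Flt3 (-1.50) were no longer called but kept their direction.

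Several genes, named after their values were seen, had more than 1 called exon bin, each from a separate peak. Tenm3 had 3 of 6 exon bins gained in females (0.87 to 1.41) and 3 of 8 in males (1.33 to 1.76). Fat1, a giant cadherin, had 3 of 3 gained in males (1.23 to 1.47). Evpl, an envelope protein of stratified epithelia, had 2 of 3 gained in females, and Syk, Sorl1, Zfhx3, Tiam1, Ptpn14 and Cfap57 each had 2 gained in males. Mroh5 had 2 of 5 lost in males (-1.65 and -1.45). Bins of a gene did not always go together: Zfp369 in females, and Dnah10, Nod2 and Shroom3 in males, had 1 gained and 1 lost bin.

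Zinc finger genes had a larger share of gains than the exon bins as a whole, a difference that was not tested. By symbol, 160 exon bins in 128 genes belonged to zinc finger genes in females and 184 bins in 148 genes in males. In females 12 were called, 9 gained and 3 lost (7.50%), beside 2.08% of all autosomal bins. In males 27 were called, 24 gained and 3 lost (14.7%), beside 4.36%. Gains made up 5.6% and 13.0% of these bins, beside 0.812% and 2.36% of all autosomal bins. Of these, 8 gains in females and 22 in males lay among the 87 and 96 bins in last exons. Among females, zinc finger bins of last exons had a median change of 0.18 and those of internal exons 0.02. The male medians were 0.33 and -0.0025. Last exons outside the family had 50 of 1557 bins called in females (3.21%, 34 gained) and 108 of 1919 in males (5.63%, 73 gained). With the trend subtracted, 5 of the 160 zinc finger bins were called in females (1 gained) and 11 of the 184 in males (7 gained). The shares over all autosomal bins were then 0.751% and 1.67%. The female majority of gains was thus not kept. No called female zinc finger bin and 2 male ones (both lost) came from single-bin peaks.

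The leading zinc finger bins in females were those of Zfp316 (1.21, FDR 2.21e-05), Zfp13 (1.30, FDR 0.000323), Zfp647 (1.23, FDR 0.000682), Zfp865 (1.04, FDR 0.00119), Zfp334 (0.95, FDR 0.00157) and Zfp369 (0.99, FDR 0.00163). Of these, Zfp316 alone was still called with the trend subtracted (0.81). The others kept their direction: Zfp13 (0.90), Zfp647 (0.83), Zfp865 (0.64), Zfp334 (0.57) and Zfp369 (0.68). In males the leading bins were Zfp316 (2.02, FDR 2e-12), Zfp64 (1.98, FDR 1.49e-09), Zfp282 (1.74, FDR 6.87e-07), Zfp658 (1.71, FDR 4.57e-05), Zfp957 (1.63, FDR 0.000145) and Zfp27 (1.12, FDR 0.00157). All but Zfp27, whose change became 0.68, were still called with the trend subtracted. Among full-length exon bins that hold the linker letters, 10 of 98 gained and 2 lost the mark in females, and 27 of 109 gained and 2 lost it in males. Gains were thus 10.2% and 24.8% of these bins, beside 1.06% and 3.13% of all autosomal bins of full length, a difference that was not tested. After the GC and signal trend was subtracted, 3 gained and 2 lost in females and 4 gained and 1 lost in males (3.06% and 3.67% gained, beside 0.380% and 1.25%). Zinc finger exons are similar to each other and near-identical copies exist, so reads may be split between family members.

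The counts of other families are read beside 2.08% of all autosomal bins called in females and 4.36% in males, and no difference from these shares was tested. Dynein heavy chains had 2 of 54 called in females (3.70%) and 6 of 73 in males (8.22%, 4 gained), led by Dnah10 (1.24) in females and Dync2h1 (1.34) in males. Cadherins and giant adhesion proteins had 1 of 39 and 5 of 43 called (2.56% and 11.6%), led in both sexes by exon 10 of Fat1 (0.92 in females and 1.47 in males). Of the 5 male bins 3 are those of Fat1, so the male share rests mostly on 1 gene. Muscle giants and ryanodine receptors had 1 of 92 and 4 of 100, led by Ttn, which fell by 1.62 at exon 180 of 191 in females and gained 1.15 at exon 186 of 191 in males. Collagens had 2 of 84 called in females, among them Col18a1 (-1.66), and 0 of 100 in males. Spectrins and ankyrins had 1 of 29 (Sptbn4, 1.19) and 2 of 31 (Ank3, 1.47 at the smallest FDR). In males 1 of 28 laminin bins (3.57%, Lamb3, -1.91) and 1 of 9 serpin bins (11.1%, Serpina12, -1.43) were called. So were 1 of 54 ABC transporter bins (1.85%, Abca1, 1.26) and 1 of 8 vomeronasal receptor bins (12.5%, Vmn2r-ps117, 1.06). In females these families had 34, 7, 48 and 9 bins and 0 called. Exons cover 2.99% of the Serpina12 bin and 2.5% of the Vmn2r-ps117 bin. Cytochrome P450 genes had 1 of 29 called in females, the last exon of Cyp1a2 (-1.22), a caffeine-metabolising liver enzyme, and 1 of 34 in males, Cyp4f39 (-1.71). With the trend subtracted, Dnah10 (0.95), Fat1 (0.57), Ttn (-1.27), Col18a1 (-1.405) and Sptbn4 (0.89) were no longer called in females. Nor were Dync2h1 (0.74), Ttn (0.71), Ank3 (0.86), Lamb3 (-1.34), Serpina12 (-1.025), Vmn2r-ps117 (0.54) and Cyp4f39 (-1.06) in males. All of these kept their direction. Olfactory receptors, protocadherins, mucins, NLR, histocompatibility and Skint genes had 1 to 21 exon bins each per sex and 0 called, too few bins to read against those shares.

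Exon places shared by the sexes allow a comparison between tables that have no library in common. Bins that overlapped by at least 0.5 of the length of each gave 4654 shared places, 43.5% of the female and 35.8% of the male exon bins. The peaks were merged for each sex separately, so bin borders differ and 8 places had identical coordinates. Of the shared places, 91 were called in females and 234 in males, and 48 were called in both, which is 52.7% of the female and 20.5% of the male calls at shared places. Of these 48, 47 gained the mark in both sexes, 1 lost it in both, and 0 went opposite ways. The median GC content of the 48 was 57.4%, beside 54.7% over all female exon bins. Their number was not counted again with the GC and signal trend subtracted. Over all autosomal bins, 341 of 54208 shared places were called in both, 316 gained and 24 lost, which is 38.3% of the female and 14.7% of the male calls there. Of the places called in females, 83 of 91 (91.2%) had the same sign in males, and of those called in males 217 of 234 (92.7%) had the same sign in females. The sign was the same at 62.2% of all 4654 places, beside 64.5% of the 54208 shared places over all autosomal bins. Because 131 of the female and 364 of the male calls had no counterpart in the other table, the shared calls describe the places present in both.

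**Figure D4:**
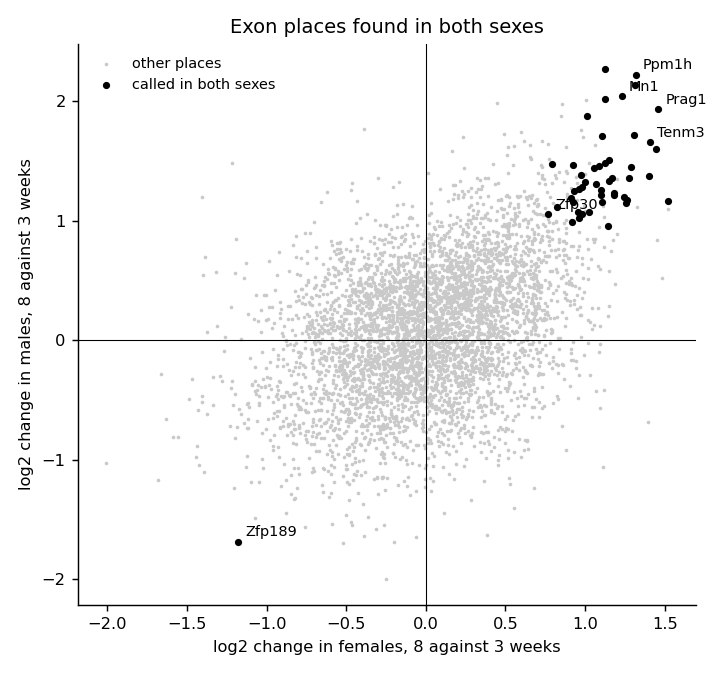
Log2 change between 3 and 8 weeks in females (horizontal axis) and males (vertical axis) at the 4654 exon places found in both control comparisons. Black points are the 48 places at FDR under 0.05 in both sexes. All of them but Zfp189 lie above 0 on both axes.

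The 48 places belong to 47 genes. Protein-coding genes hold 28 of them, processed pseudogenes 15, long noncoding genes 3, and a small RNA gene and another pseudogene 1 each. By position, 19 lie in single-exon transcripts, 17 in last exons, 9 in internal exons and 3 in first exons. Exons cover 23 of them completely and 35 by at least 50%. Ordered by the smaller of both changes, Prag1, a pseudokinase, led with 1.46 in females and 1.93 in males (chr8:36146330-36146830 in females). The pseudogene Gm4247 followed (1.45 in females, and FDR 9.99e-05 in males), then exon 23 of 29 of Tenm3 (1.41 and 1.66, chr8:48276401-48276901) and the pseudogene Gm19198 (1.40 and 1.37). The last exons of Ppm1h (1.32 and 2.23), Gm13026 (1.31 and 2.13) and Cilp2, a cartilage matrix protein (1.31 and 1.72), came next, with Gm9817 (1.29 and 1.45), the pseudogene Prkcz2 (1.28 and 1.36) and the first exon of Mn1 (1.23 and 2.05). Chosen after the values were seen, the single loss is the last exon of Zfp189 (-1.18 in females, FDR 0.0479, and -1.69 in males, FDR 0.00544). It is one of 5 zinc finger places among the 48, and the other 4, Zfp334, Zfp658, Zfp27 and Zfp30, gained in both sexes.

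With MO, 0 exon bins passed an FDR of 0.05 in any of the 4 comparisons by edgeR's exact test. The smallest FDR of an exon bin was 0.211, for males aged 3 weeks. When p was left unadjusted and held under 0.05, the 3-week comparisons counted 927 exon bins for females (7.87%, beside 7.74% of all autosomal bins) and 1263 for males (9.27%, beside 8.83%). The 8-week comparisons counted 718 for females (6.94%, beside 7.04%) and 616 for males (6.34%, beside 6.51%). The bins described next passed an unadjusted p of 0.001 and are a ranking within each table, and "exact p" is the unadjusted p of that test.

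At 3 weeks, 23 exon bins passed in females (0.195%, 12 higher and 11 lower with MO), beside 0.212% of all autosomal bins (0.105% higher and 0.107% lower). In males 47 passed (0.345%, 32 higher and 15 lower), beside 0.278% (0.185% higher and 0.0926% lower). At 8 weeks 17 passed in females (0.164%, 8 higher and 9 lower), beside 0.168% (0.0693% higher and 0.0985% lower), and 11 in males (0.113%, 8 higher and 3 lower), beside 0.112% (0.0483% higher and 0.0641% lower). The shares of exon bins were near those of the genome except in males at 3 weeks, where the share was larger, a difference that was not tested. With the trend subtracted the counts were 24 and 37 in females and males at 3 weeks and 15 and 9 at 8 weeks, and the females at 8 weeks then had 4 higher and 11 lower. At 3 weeks these were 0.204% and 0.272% of exon bins, beside 0.204% and 0.232% of all autosomal bins. At 8 weeks they were 0.145% and 0.0927%, beside 0.162% and 0.118%. In each pair of MO comparisons, 6 to 10 bins that passed in the first had an exon bin at the same place in the second, and 0 passed in both, which at these shares of bins passing says nothing about overlap.

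In females at 3 weeks the smallest p among higher bins belonged to Plec (1.04, exact p = 6.88e-05, exon 31 of 33, chr15:76182450-76182950), followed by the pseudogene Gm19430 (1.18, p = 0.000109), Kif26a, an unconventional kinesin (1.37, p = 0.00044), and the pseudogene Gm7126 (1.20, p = 0.000527). Exons cover 8.18% of that Plec bin. The lower bins were led by the pseudogene Gm13511 (-1.53, exact p = 0.000107), the noncoding Gm29208 (-1.43, p = 0.000293), the collagen gene Col15a1 (-1.41, p = 0.000489) and Stkld1 (-1.51, p = 0.000533). In males at 3 weeks the higher bins were led by Dmxl1 (1.55, exact p = 2.03e-06), the ribosomal RNA copy n-R5s92 (1.82, p = 6.52e-06), Zfp763 (1.56, p = 6.29e-05) and the kinase gene Map4k4 (1.78, p = 0.00013). The lower ones were led by Sbno2 (-1.52, exact p = 8.75e-05), the Wnt-modulating secreted protein Dkk3 (-1.71, p = 0.000175), Col26a1 (-1.75, p = 0.000204) and Fcgbp, a mucus protein (-1.49, p = 0.000211).

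Zinc finger genes were 6 of the 47 male bins at 3 weeks, all 6 higher with MO and all annotated to last exons. They are 6 of the 183 zinc finger exon bins of that table (3.28%, beside 0.278% of all autosomal bins), and the median change of the 183 was 0.20, beside 0.03 over all autosomal bins. Apart from Zfp763 they were named after their values were seen: Zfp420 (1.34, exact p = 0.00029), Zfp867 (1.12, p = 0.000316), Zfp329 (1.15, p = 0.000456), Zfp469 (1.31, p = 0.000627) and Zfp316 (0.85, p = 0.000906). Their FDRs lay between 0.382 and 0.600. The bin given to Zfp469 was assigned to a long noncoding transcript and has no exon in the gene models used for the check. With the trend subtracted Zfp763 (1.44), Zfp420 (1.22) and Zfp469 (1.40) still passed and Zfp867 (0.73), Zfp329 (0.88) and Zfp316 (0.77) did not, and 1 of the 6 comes from a single-bin peak. No zinc finger exon bin passed in the other 3 MO comparisons.

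At 8 weeks the higher bins in females were led by Bahcc1, a chromatin reader (1.57, exact p = 0.000152), Dennd5a, a regulator of Rab GTPases (1.63, p = 0.000162), the noncoding Gm26806 (1.11, p = 0.000273) and the pseudogene Gm12791 (1.48, p = 0.000705), which no longer passed with the trend subtracted (1.42). Exons cover 8.6% of the Dennd5a bin. The lower bins in females were led by Skida1 (-1.54, exact p = 2.26e-05), the noncoding Gm16214 (-1.78, p = 8.57e-05), Apc2 (-1.17, p = 0.000278) and Notch2, a receptor of bile duct development (-1.46, p = 0.000296). Annotated coding sequence covers 54.9% of the Gm16214 bin, so this bin also lies over a protein-coding exon. In males at 8 weeks the higher bins included Gria1, a glutamate receptor subunit (1.68, exact p = 0.000301), Syne2, a nuclear envelope spectrin-repeat protein (1.65, p = 0.000677), and Ildr1, a receptor of tricellular junctions (1.25, p = 0.00079). The 3 lower ones were Sema6d, a semaphorin (-1.20, exact p = 0.000442), Gclc, the rate-limiting subunit of glutathione synthesis (-1.38, p = 0.000778), and the noncoding AC132307.2 (-1.35, p = 0.000998).

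**Figure D5:**
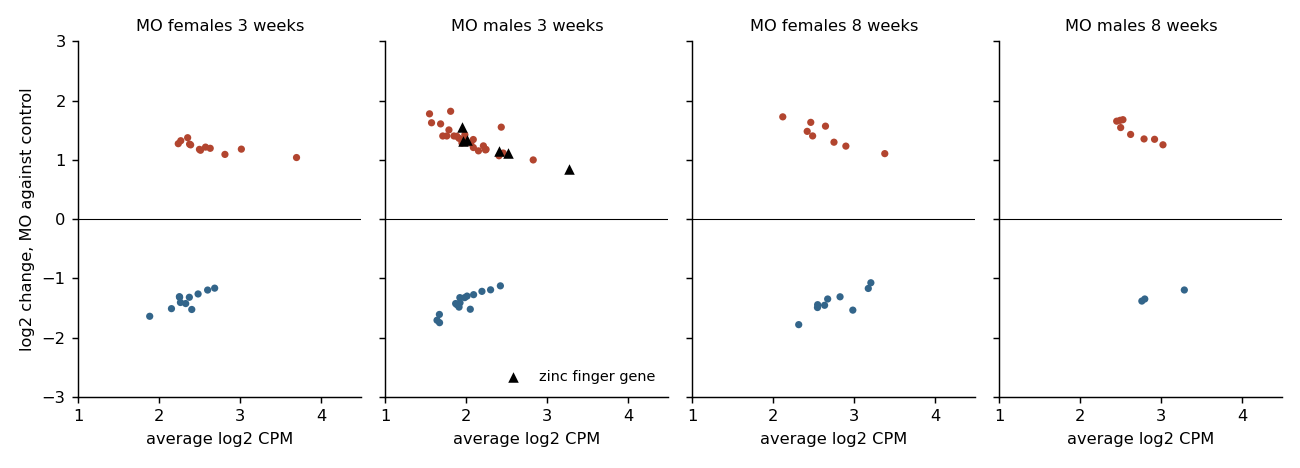
Log2 change between MO and control (vertical axis) against average log2 CPM (horizontal axis) for the exon bins at an unadjusted p under 0.001 in each of the 4 MO comparisons. Red and blue points are higher and lower with MO, and black triangles are zinc finger genes, which appear in males at 3 weeks alone, with changes between 0.85 and 1.56.

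The bin of Apc2 appears in both kinds of comparison at the same coordinates. It gained 1.95 between 3 and 8 weeks in control females and was 1.17 lower with MO at 8 weeks, and both values contain the same 4 control libraries of 8-week-old females, so they are not independent. The same holds for Gm19430, which gained 1.29 with age in control females and was 1.18 higher with MO at 3 weeks, where the control libraries of 3-week-old females are shared. In control males the last exon of Sema6d gained 1.29 with age and was 1.20 lower with MO at 8 weeks, with the control libraries of 8-week-old males in common. These 3 bins are examples chosen after their values were seen, and most age gains had such signs. Of female gains with a bin at the same place, 53 of 58 were higher with MO at 3 weeks and 57 of 61 lower at 8 weeks. The male counts were 130 of 152 and 176 of 200. A high or low value in the shared libraries enters both comparisons, so nothing is read from these pairs of values.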

How the data were processed

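H3K9me3 was profiled in liver by ChIP-seq in 32 ChIP libraries of 8 groups, with 4 input libraries that were not used here. The methods of the study state that the authors aligned reads to mm10 (GRCm38), called broad peaks with MACS2, kept peaks found in replicates, merged them for each sex, split them into bins, counted reads in the bins and compared groups with edgeR's exact test. Annotation was by ChIPseeker. The authors deposited, for each bin, a log2 change, an average log2 CPM, a p-value and an FDR, and these columns are the source of every change and p-value in the text, since no value per library was used here. Replicates are single libraries, whose depth cannot be read from these tables. The FDR is the authors', and was adjusted over more bins than the tables list. The 6 tables hold 1 bin per peak.

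Exon bins were the rows on chromosomes 1 to 19 annotated as exon. Age tables give 3 weeks relative to 8 weeks and the sign was turned, so that positive means gained at 8 weeks. A bin was called at FDR under 0.05 with age and at an unadjusted p under 0.001 with MO. Exon and coding cover, GC content, repeats and motifs were computed from the GRCm38 sequence and GENCODE vM21 models. For the trend subtraction, the median change of each of 10 by 10 classes of GC content and log2 CPM was removed and the p-value was recomputed with the implied standard error. This step was checked on simulated data only for changes larger than most of those named here. Shared places overlapped by at least 0.5 of the length of each bin. Named were the 10 largest gains and losses per age table, the 4 smallest p per direction with MO, the 5 strongest bins per kb, the 10 leading places called in both sexes, 6 zinc finger bins per sex and 1 bin for each other family. Some bins named by these rules are not reported here. The members, lists and rules were chosen with earlier results of these data known. Python 3.11.15, numpy 2.4.6, pandas 2.3.3, scipy 1.17.1 and matplotlib 3.10.9 were used.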

Additional observations from a re-analysis of the deposited data

How the results depend on the processing

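No paired analysis was possible because the tables hold no value per library, and for the same reason no fit without a given replicate, with another normalization or with another filter was run. The number of exon bins called with age was 222 in females and 598 in males. It was 67 and 247 at FDR under 0.01, 47 and 92 in single-bin peaks, 134 and 357 where exons cover at least 50% of the bin, and 74 and 221 with the GC and log2 CPM trend subtracted, of which 50 and 156 were also called as deposited. Above the median log2 CPM it was 146 and 408, with an absolute log2 change of at least 1 it was 192 and 581, and adjusted over the deposited bins alone it was 267 and 755. Gains were a minority in single-bin peaks, 9 of 47 in females and 30 of 92 in males. The median change (-0.04 for females, -0.03 for males) became 0.0078 and 0.021 with the trend subtracted, 0.025 and 0.090 where exons cover at least 50% of the bin, and 0.064 and 0.146 above the median log2 CPM. With MO, the counts in females and males at 3 weeks and in females and males at 8 weeks were 203, 325, 153 and 130 at p under 0.01, 1, 4, 2 and 0 at p under 0.0001, 4, 11, 7 and 2 in single-bin peaks, and 9, 22, 10 and 4 where exons cover at least 50%. Places called in both sexes were 48, and 0 when identical coordinates were required, which leaves 8 places. The trend and single-bin counts for zinc finger genes, pseudogenes and exon positions, the trend counts for bins with the linker letters, and the ranking of full-length bins alone, were chosen after seeing the data. With the trend subtracted, 19 of 34 bins named in females stayed called, as did 21 of 34 named in males, and 0 turned direction. Beyond the construction of each setting, the cause was not tested.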

Other observations

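Small RNA genes held 111 exon bins in the female and 138 in the male age table. In males 8 of them gained the mark and 1 lost it (6.52% called, beside 4.36% of all autosomal bins), and in females 1 gained and 2 lost it. Called exon bins of high GC content were mostly gains: in the highest of 3 equal classes of all bins by GC content 84 gained (2.21% of the class) and 7 lost the mark in females, and 197 gained (4.37%) and 10 lost it in males, while in the lowest class 21 gained and 60 lost it in females and 86 gained and 122 lost it in males. Bins outside exons went the same way, with 426 gained (1.22%) and 37 lost in females and 1516 gained (3.40%) and 136 lost in males in the highest class, and 191 gained and 895 lost in females and 890 gained and 1621 lost in males in the lowest.

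A further 4 bins at an unadjusted p under 0.001 with MO are named here, chosen after their values were seen and standing for no group of genes. In males at 3 weeks Creb3l3, a transcription factor of hepatic lipid metabolism, had a log2 change of -1.44 (exact p = 0.000278), and Tsc2, an inhibitor of mTOR signalling, had a change of -1.41 (p = 0.000349). In females at 8 weeks Slc6a4, the serotonin transporter, had a change of -1.31 (exact p = 0.000437) and Col6a3, a collagen chain, of 1.30 (p = 0.000758). All 4 had an FDR above 0.05 in the deposited tables.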
